A study of Mus musculus with 6 samples.

Results

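The serum amyloid A genes (Saa1, Saa2, Saa3 and Saa4), the orosomucoid genes (Orm1, Orm2 and Orm3), the lipocalin gene Lcn2 and the pentraxin genes Crp and Apcs were examined in mouse liver after ischemia and reperfusion. They were taken by gene name, which gave 10 of the 54532 genes in the count table. All 10 passed the filter on low counts, which kept 13134 genes. RNA was sequenced in bulk from the injured liver lobe of C57BL/6 mice, whose blood supply had been stopped for 1 h without cooling (warm ischemia) and then returned for 12 h (reperfusion). The IRF8-cKO group, described in the labels as deficient in interferon regulatory factor 8 in hepatocytes, had 3 libraries, named IRF8-cKO-71, then IRF8-cKO-88, then IRF8-cKO-106, and per-library values below keep that order. The wild-type (WT) group had 3 libraries, WT-14 then WT-44 then WT-77 in the same way, and went through the same ischemia and reperfusion, so no library came from uninjured liver. No source used here gives the Cre line, the deleted exons or the age of the mice, and cells other than hepatocytes would keep the gene. The labels do not say that the libraries came from separate animals, so the p-values cover the spread of these samples alone, which may be technical.

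The acute-phase response is the switch in hepatocyte secretion that follows injury or infection. Cytokines of the interleukin 6 and interleukin 1 families reach hepatocytes and act through STAT3, NF-kB and C/EBP factors, which raise transcription of the positive acute-phase genes. In mice, Saa1, Saa2, the orosomucoids and Apcs are among the strongly inducible genes, while Crp, the classical human marker, responds weakly and Saa4 is largely constitutive.

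Several of these genes lie side by side as duplicated copies. The 4 Saa genes fell within 42.3 kb of chromosome 7 (chr7:46711998-46754313), the 3 Orm genes within 21.3 kb of chromosome 4 (chr4:63344560-63365878), and Crp and Apcs within 197 kb of chromosome 1 (chr1:172698055-172895041), all in mm10. Lcn2 stood alone on chromosome 2 (chr2:32384633-32388252). The coding transcripts of Saa1 and Saa2 were 94.4% identical over aligned bases, and 74 of the 560 windows of 50 bases in Saa1 occurred in Saa2. Orm1 and Orm2 were 91.0% identical and shared 148 of 726 such windows. How multiply mapped reads were handled is not stated in the sources, so the split of reads between these copies is uncertain.

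The sequences before the start sites are shown because the neighbouring copies can be compared base by base beside their levels. Each runs 5′ to 3′ on the gene's strand and ends just before the RefSeq start (GRCm38.p6), and capitals mark a C/EBP-type match, TTGCNNAA on either strand. The windows are chr7:46742981-46743230 on the minus strand for Saa1, chr7:46751583-46751832 on the plus strand for Saa2 and chr7:46715677-46715926 on the minus strand for Saa3. For the orosomucoids they are chr4:63362199-63362448 for Orm2 and chr4:63355908-63356157 for Orm3, both on the plus strand.
Saa1: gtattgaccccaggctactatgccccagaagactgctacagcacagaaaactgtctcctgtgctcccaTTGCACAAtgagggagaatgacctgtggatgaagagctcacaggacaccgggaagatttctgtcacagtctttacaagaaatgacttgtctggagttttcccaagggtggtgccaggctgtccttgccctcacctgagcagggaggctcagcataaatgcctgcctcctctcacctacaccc
Saa2: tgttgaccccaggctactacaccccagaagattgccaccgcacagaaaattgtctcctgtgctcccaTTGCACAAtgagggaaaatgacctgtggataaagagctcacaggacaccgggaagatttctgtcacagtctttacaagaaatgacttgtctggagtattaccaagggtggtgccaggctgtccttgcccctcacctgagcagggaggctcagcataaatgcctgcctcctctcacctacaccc
Saa3: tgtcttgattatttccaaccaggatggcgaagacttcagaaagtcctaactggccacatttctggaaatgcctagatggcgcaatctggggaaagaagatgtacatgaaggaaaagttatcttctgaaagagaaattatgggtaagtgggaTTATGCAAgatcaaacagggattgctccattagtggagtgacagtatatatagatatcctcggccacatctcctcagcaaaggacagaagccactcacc
Orm2: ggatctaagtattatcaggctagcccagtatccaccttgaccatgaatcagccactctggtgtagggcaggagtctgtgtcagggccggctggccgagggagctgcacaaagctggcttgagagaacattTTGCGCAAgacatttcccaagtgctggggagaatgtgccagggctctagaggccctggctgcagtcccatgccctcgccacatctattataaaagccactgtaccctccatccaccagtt
Orm3: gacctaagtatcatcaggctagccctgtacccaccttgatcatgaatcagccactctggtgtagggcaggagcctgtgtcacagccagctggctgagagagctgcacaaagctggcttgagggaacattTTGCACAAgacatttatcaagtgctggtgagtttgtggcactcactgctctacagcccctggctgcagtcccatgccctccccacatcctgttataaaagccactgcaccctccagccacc

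The Saa1 and Saa2 windows were 95.6% identical over aligned bases, those of Orm2 and Orm3 89.0%, and those of Saa1 and Saa3 64.4%. RefSeq windows were matched for 9 of the 10 genes, all but Orm1. The C/EBP-type letters occurred in 7 of these 9 windows and in 9.56% of 32851 RefSeq windows of the same length. The 7 include the similar windows of Saa1 and Saa2 and of Orm2 and Orm3, so they are not separate cases. The RefSeq start of Lcn2, also among the 7, lies 513 bases from its start in the count table. A STAT pattern, TTCNNNGAA, occurred in 1 of the 9 (Apcs) and in 7.02% of all windows. An NF-kB pattern, GGGA and TTCC separated by 2 free bases, occurred in 0 of the 9 and in 1.21% of all windows. The TATAAA box occurred in 3 of the 9 (Orm2, Orm3 and Crp) and in 12.4% of all windows. All patterns were searched on both strands. A match is a description of the letters and no match says only that they are absent from this window.

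Library totals were 16385964 to 16805830 counts in IRF8-cKO and 14758237 to 16010064 counts in WT. The 10 genes together took 0.545% to 3.57% of all reads in IRF8-cKO libraries and 0.744% to 1.598% in WT libraries. Irf8 itself averaged lower in IRF8-cKO, with 5.67, 6.72 and 4.17 CPM (counts scaled to a common library total by the TMM method) against 9.32, 9.50 and 10.3 CPM in WT, but did not pass the test (log2 fold change -0.81, standard error (SE) 0.33, edgeR quasi-likelihood adjusted p = 0.174). Mitochondrial genes took 5.99% to 7.14% of reads in IRF8-cKO libraries and 7.19% to 20.2% in WT libraries. IRF8-cKO-106 had the highest TMM factor, 1.32, and WT-44 the lowest, 0.786.

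None of the 10 genes passed the test between IRF8-cKO and WT at an adjusted p of 0.05. The p-values are those of edgeR's quasi-likelihood test after Benjamini-Hochberg adjustment across the 13134 tested genes, of which 182 (1.39%) were called, 59 higher and 123 lower in IRF8-cKO. The smallest adjusted p among the 10 was 0.121, for Orm2. Unadjusted p was under 0.05 for 3 of the 10 genes (Orm2, Apcs and Crp) and for 24.1% of all tested genes. DESeq2 called Orm2 and Crp, 2 of the 10, and 1353 (9.34%) of the 14489 genes to which it gave an adjusted p. With no low-count filter edgeR called 3 of the 10 (Orm2, Crp and Saa4) and 7.15% of all genes. IRF8-cKO and WT libraries were fully apart for 1 gene of the 10, against 28.9% of all tested genes. The fitted log2 fold change was positive for 8 and negative for 2, with a median of 0.99 over the 10 and 0.03 over all genes tested.

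Most of these genes were widely spread among the IRF8-cKO libraries. The median SD of log2 CPM over all tested genes was itself higher in IRF8-cKO (0.444) than in WT (0.335). Of the 10 genes, 9 were above that median in IRF8-cKO and 7 in WT. Orm3 went the other way, with the highest library 1.45-fold above the lowest in IRF8-cKO and 3.13-fold in WT. IRF8-cKO-71 had the highest level for 9 of the 10, all but Orm3, whereas it was the highest library for 24.2% of all tested genes. IRF8-cKO-106 had the lowest level for 6 of the 10, against 15.6% of all tested genes. That was not particular to these genes, as IRF8-cKO-106 was also lowest for 10 of 14 negative acute-phase proteins and 7 of 13 hepatocyte markers. For Saa1, Saa2, Saa3, Saa4, Orm1, Lcn2 and Apcs, both the highest and the lowest library were IRF8-cKO libraries.

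**Figure D1:**
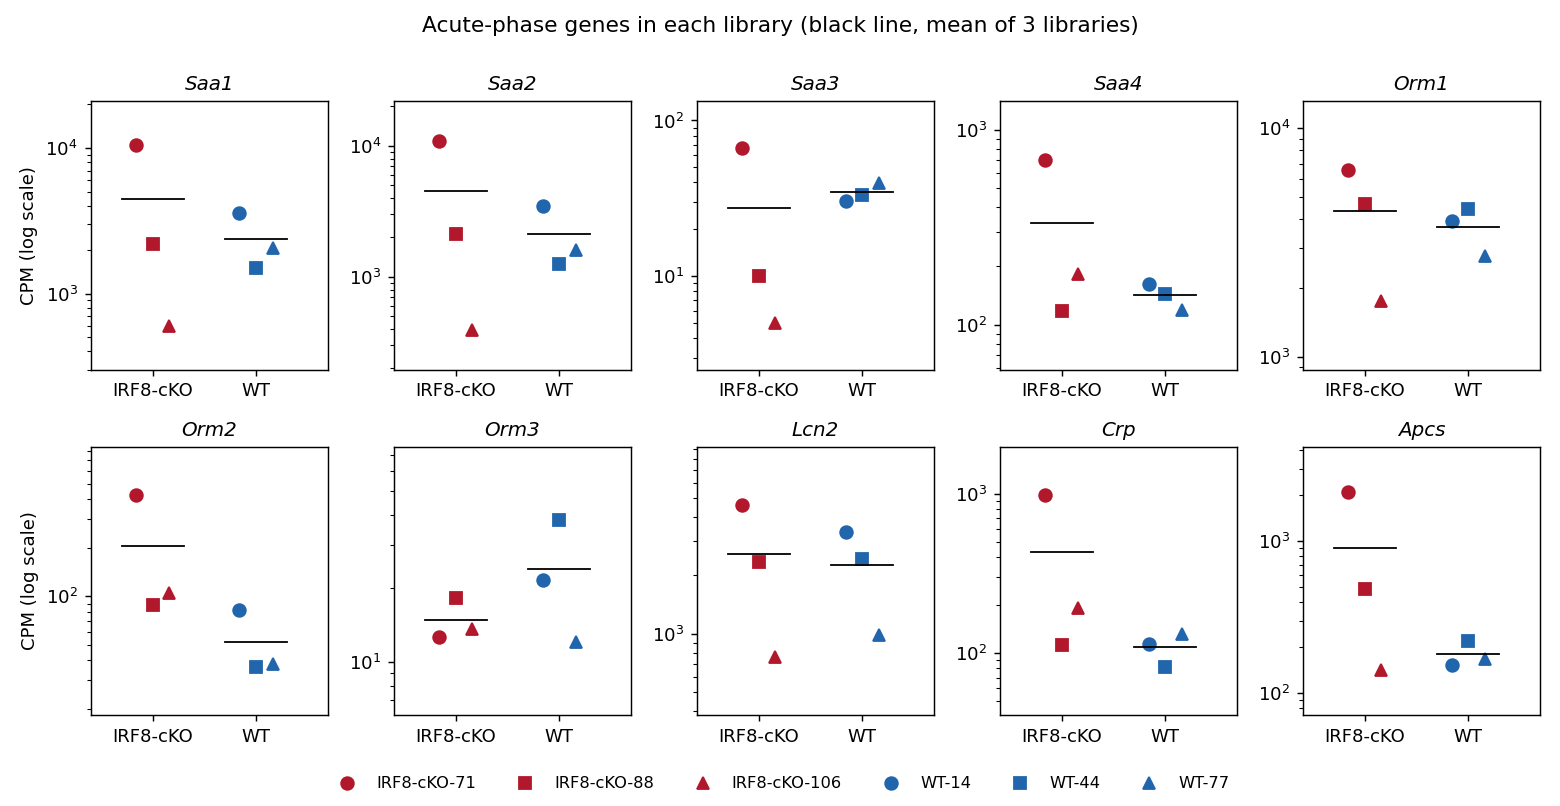
CPM (log scale, a different range in each panel) of the 10 acute-phase genes in each library, IRF8-cKO on the left in red and WT on the right in blue, with a black line at the mean of 3 libraries. IRF8-cKO-71 is the highest point for 9 of the 10 genes, and the groups are apart for Orm2.

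Saa1 and Saa2 encode the main acute-phase apolipoproteins of high-density lipoprotein. Saa1 had 10561, 2177 and 598 CPM in the IRF8-cKO libraries, against 3591, 1497 and 2063 CPM in the WT libraries. Saa2 had 10977, 2123 and 390 CPM in the IRF8-cKO libraries, against 3482, 1260 and 1605 CPM in the WT libraries. In both genes the IRF8-cKO values enclosed all WT values: IRF8-cKO-71 was above every WT library and IRF8-cKO-106 below every one. The highest IRF8-cKO library was 17.7-fold above the lowest for Saa1 and 28.1-fold for Saa2, against 2.40-fold and 2.76-fold among WT libraries. Neither difference between groups passed the test (Saa1 log2 fold change 0.90, SE 0.87, edgeR adjusted p = 0.552; Saa2 1.09, SE 0.97, edgeR adjusted p = 0.519). Without IRF8-cKO-71 both estimates changed sign, to -0.77 for Saa1 and -0.74 for Saa2. The ratio of Saa2 to Saa1 reads was 1.04, 0.975 and 0.653 in IRF8-cKO libraries and 0.970, 0.842 and 0.778 in WT libraries.

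Saa3, which in mice is also made by macrophages and adipocytes, was far less abundant. It had 66.7, 9.99 and 5.004 CPM in IRF8-cKO libraries, against 30.6, 33.3 and 39.9 CPM in WT libraries. The WT libraries lay within 1.31-fold of each other, with IRF8-cKO-71 above them and both other IRF8-cKO libraries below. With all libraries the log2 fold change was -0.35 (SE 0.79, edgeR adjusted p = 0.816). Without IRF8-cKO-71 it was -2.20 and passed the test, as did 1.05% of all genes tested there, with an edgeR adjusted p of 0.0372 (0.0372 to 0.979 over the 17 alternatives tried).

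Saa4, the constitutive member of the family, had 701, 118 and 183 CPM in IRF8-cKO libraries and 163, 144 and 119 CPM in WT libraries. IRF8-cKO-71 was 4.30-fold above the highest WT library, while IRF8-cKO-88 was below all WT libraries. The log2 fold change was 1.23 (SE 0.59, edgeR adjusted p = 0.236), and 0.09 without IRF8-cKO-71.

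The orosomucoids, or alpha-1-acid glycoproteins, are plasma lipocalins that bind basic and neutral drugs and dampen inflammation. Orm1 had 6577, 4646 and 1757 CPM in IRF8-cKO libraries, against 3926, 4458 and 2755 CPM in WT libraries. Its groups overlapped, and the log2 fold change of 0.22 (SE 0.47, edgeR adjusted p = 0.803) changed sign, to -0.21, without IRF8-cKO-71. Orm2 had 426, 88.8 and 105 CPM in IRF8-cKO libraries, against 82.1, 36.4 and 37.9 CPM in WT libraries. Every IRF8-cKO library lay above every WT library, the closest being IRF8-cKO-88 at 88.8 CPM and WT-14 at 82.1 CPM. The means were 207 ± 190 CPM in IRF8-cKO and 52.1 ± 25.9 CPM in WT (SD, n = 3 each), 3.96-fold apart by the fit (log2 fold change 1.99, SE 0.64, edgeR adjusted p = 0.121). Permuting the group labels exactly (two-sided, on log2 CPM) gave p = 0.1, the smallest that 3 against 3 libraries allow. Without IRF8-cKO-71 the log2 fold change of Orm2 was 0.90 (edgeR adjusted p = 0.178). Without IRF8-cKO-88 it was 2.35 and passed the test (edgeR adjusted p = 0.0452), as did 8.83% of all genes tested there, and over 16 alternatives the adjusted p ranged between 7.3e-06 and 0.335.

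Orm3 was the least abundant of the 10 by CPM and the only one not highest in IRF8-cKO-71. It had 12.6, 18.2 and 13.7 CPM in IRF8-cKO libraries, against 21.7, 37.9 and 12.1 CPM in WT libraries. WT-77 lay below and WT-14 and WT-44 above the IRF8-cKO libraries (log2 fold change -0.69, SE 0.39, edgeR adjusted p = 0.306). Within the cluster, Orm1 supplied 93.8%, 97.7% and 93.7% of Orm reads in IRF8-cKO libraries and 97.4%, 98.4% and 98.2% in WT libraries. Orm2 supplied 6.07%, 1.87% and 5.61% in IRF8-cKO libraries and 2.04%, 0.804% and 1.35% in WT libraries, and IRF8-cKO-88 lay within the WT range.

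Lcn2 encodes lipocalin 2, which binds bacterial iron siderophores and is made by hepatocytes in the acute phase and by neutrophil precursors. It had 4618, 2353 and 760 CPM in IRF8-cKO libraries, against 3355, 2438 and 986 CPM in WT libraries. The ranges overlapped widely (log2 fold change 0.19, SE 0.63, edgeR adjusted p = 0.877), and the estimate changed sign without IRF8-cKO-71 (-0.53) and without WT-77 (-0.18).

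The pentraxins Crp and Apcs (Apcs encodes serum amyloid P component) bind ligands on microbes and damaged cells. Crp had 985, 111 and 192 CPM in IRF8-cKO libraries, against 113, 81.1 and 132 CPM in WT libraries. Apcs had 2094, 482 and 143 CPM in IRF8-cKO libraries, against 153, 222 and 167 CPM in WT libraries. IRF8-cKO-71 was 7.47-fold above the highest WT library for Crp and 9.45-fold for Apcs, and 1 other IRF8-cKO library was also above all WT libraries in each gene, IRF8-cKO-106 for Crp and IRF8-cKO-88 for Apcs. The log2 fold changes were 1.98 for Crp (SE 0.74, edgeR adjusted p = 0.157) and 2.33 for Apcs (SE 0.82, edgeR adjusted p = 0.140). Without IRF8-cKO-71 they were 0.49 and 0.80. Without IRF8-cKO-88 that of Crp was 2.44 and passed the test (edgeR adjusted p = 0.0361), as did 8.83% of all genes tested there. The adjusted p of Crp was 0.00573 to 0.387 over 17 alternatives.

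**Figure D2:**
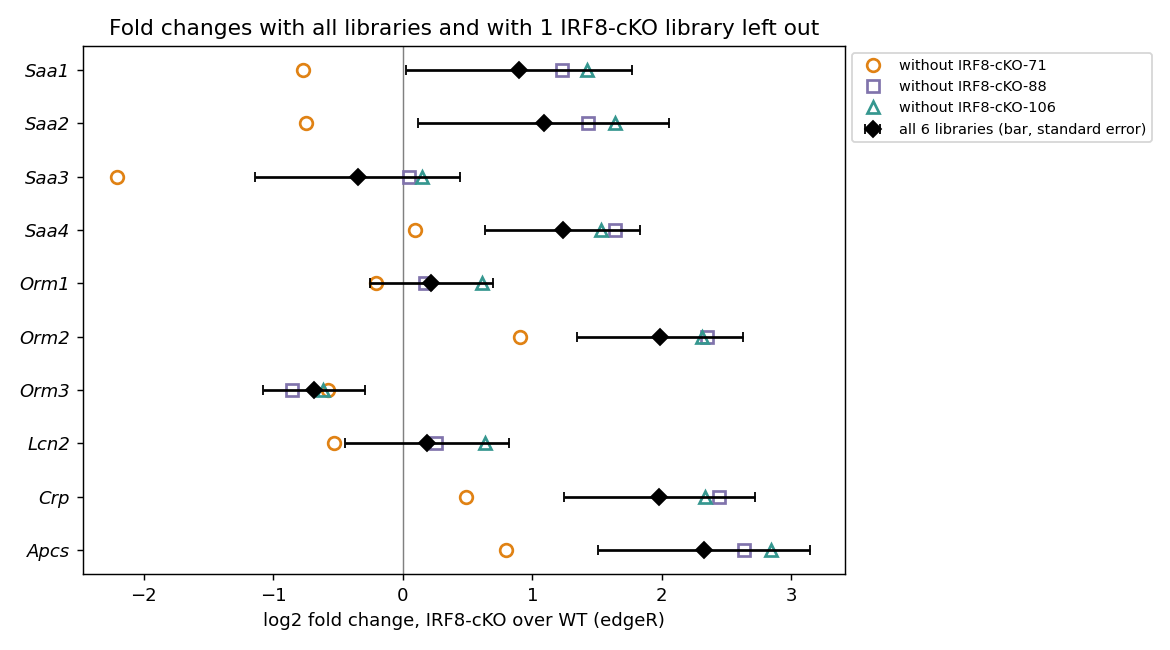
Log2 fold change (IRF8-cKO over WT, edgeR) of each gene with all 6 libraries (black diamonds, bars show the standard error) and with 1 IRF8-cKO library left out (open symbols). Without IRF8-cKO-71 the values of Saa1, Saa2, Orm1 and Lcn2 lie below 0 and that of Saa3 is -2.20.

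Levels per kilobase of coding transcript put Saa1, Saa2 and Orm1 on top in both groups. Mean CPM per kilobase was 7300 in IRF8-cKO and 3914 in WT for Saa1, 7420 and 3491 for Saa2 in the same groups, and 5582 in IRF8-cKO and 4791 in WT for Orm1. Lcn2 followed with 2816 in IRF8-cKO and 2469 in WT, and Saa3 and Orm3 were lowest. The order of the top genes depends on the length used. The exon-union length was 2478 bases for Saa1 and 2518 for Saa2, against 609 and 606 for their coding transcripts. With it Orm1 is first and Saa1 falls to 1794 in IRF8-cKO and 962 in WT. The exon-union length was also the longer for Saa3, Lcn2 and Crp. The ranges of Saa1, Saa2 and Orm1 over the libraries overlapped in both groups. These genes were measured in the same libraries, so overlapping ranges cannot decide their order, which was not tested.

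By Pearson correlation of log2 CPM over 6 libraries, among 11962 protein-coding genes, the gene most like Saa1 was Acmsd (r = 0.995), which was also the most like Saa2 (r = 0.990). Suox was most like Crp (r = 0.998), Trmu most like Apcs (r = 0.992), Poldip2 most like Orm2 (r = 0.995), Mecr most like Orm1 (r = 0.996), Cideb most like Saa4 (r = 0.997), Rtraf most like Saa3 (r = 0.992), Map3k10 most like Lcn2 (r = 0.983) and Polm most like Orm3 (r = 0.987). These are descriptions over 6 points, of which IRF8-cKO-71 is usually the farthest, and no test was made.

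Among genes that drive or restrain the acute-phase response, 2 inducers and 3 feedback inhibitors fell in IRF8-cKO. Of 7 tested inducing cytokines, 2 were lower, 0 higher and 5 did not pass in edgeR, with a median log2 fold change of -1.96. An unadjusted p under 0.05 was found for 5 of the 7, against 24.1% of all tested genes. DESeq2 called 4 lower and 0 higher of the 9 to which it gave an adjusted p. Lif, an interleukin 6 family cytokine, had 0.123, 0.308 and 0.139 CPM in IRF8-cKO libraries, against 2.57, 1.30 and 4.32 CPM in WT libraries (log2 fold change -3.82, SE 0.68, edgeR adjusted p = 0.0408). These values rest on few reads, 2, 5 and 3 in IRF8-cKO libraries and 42, 15 and 65 in WT libraries. Il1b had 3.95, 4.75 and 4.40 CPM in IRF8-cKO libraries, against 15.8, 9.58 and 18.2 CPM in WT libraries (log2 fold change -1.73, SE 0.35, edgeR adjusted p = 0.0472). Il6 had 0, 0.679 and 0.0463 CPM in IRF8-cKO libraries, against 4.35, 0.173 and 3.26 CPM in WT libraries, and did not pass (edgeR adjusted p = 0.153). Tnf was not tested, at 4 to 8 reads in IRF8-cKO libraries and 6 to 13 in WT libraries. Osm (log2 fold change -2.61, edgeR adjusted p = 0.062) and Clcf1 (-1.96, edgeR adjusted p = 0.0893) did not pass.

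Of 10 tested receptors for these cytokines 0 passed in edgeR, 2 had an unadjusted p under 0.05 (24.1% of all tested genes did) and DESeq2 called 0. Their median log2 fold change was 0.02. Il6ra had 45.9 to 53.9 CPM in IRF8-cKO libraries and 34.0 to 50.2 CPM in WT libraries, and Il6st, the shared signalling chain, 165 to 235 CPM in IRF8-cKO libraries and 123 to 186 CPM in WT libraries.

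Of 18 signalling and transcription factors, 0 were lower in edgeR and DESeq2 called 4 lower. An unadjusted p under 0.05 in either direction was found for 10 of them, against 24.1% of all tested genes. Cebpb had 180, 269 and 132 CPM in IRF8-cKO libraries, against 378, 861 and 766 CPM in WT libraries, but did not pass (log2 fold change -1.79, SE 0.41, edgeR adjusted p = 0.0583). Cebpd (-1.83, edgeR adjusted p = 0.063) and Nfkbiz (-2.60, edgeR adjusted p = 0.0622) also did not pass, and Stat3 was at -0.21 (edgeR adjusted p = 0.732).

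Of 8 feedback inhibitors, 3 were lower, 0 higher and 5 did not pass in edgeR, with a median log2 fold change of -1.96. The log2 fold change was negative for 6 and positive for 2, and 7 had an unadjusted p under 0.05 in either direction, against 24.1% of all tested genes. DESeq2 called 6 lower and 1 higher. Socs3, which is induced by STAT3 and restrains the interleukin 6 receptor, had 54.8, 109 and 51.1 CPM in IRF8-cKO libraries, against 239, 534 and 558 CPM in WT libraries (log2 fold change -2.63, SE 0.44, edgeR adjusted p = 0.0381). Nfkbia, the NF-kB inhibitor, was lower (-1.73, SE 0.33, edgeR adjusted p = 0.0446), as was Zfp36, which destabilises cytokine transcripts (-2.39, SE 0.47, edgeR adjusted p = 0.0446). The 7 calls over all the pathway lists depended on single libraries: leaving out IRF8-cKO-88 kept 7, leaving out IRF8-cKO-71 or WT-14 kept 3 each, and 0 were kept without IRF8-cKO-106, WT-44 or WT-77.

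Other positive acute-phase proteins of hepatocytes also had no edgeR call, and IRF8-cKO-71 was again often the highest library. Of 24 other positive proteins 0 passed in edgeR and 7 had an unadjusted p under 0.05, near the 24.1% of all tested genes. DESeq2 called 2 higher and 2 lower of the 23 to which it gave an adjusted p. Their median log2 fold change was 0.25. IRF8-cKO-71 was the highest library for 13 of the 24 and IRF8-cKO-106 the lowest for 11. IRF8-cKO-106 was also the lowest library for 10 of the 14 negative proteins below. Hp, which binds hemoglobin, had 27837, 13473 and 4965 CPM in IRF8-cKO libraries, against 8829, 7017 and 9091 CPM in WT libraries (log2 fold change 0.89, SE 0.55, edgeR adjusted p = 0.334). Serpina3n had 9232, 5080 and 1696 CPM in IRF8-cKO libraries, against 2734, 1217 and 1847 CPM in WT libraries (1.47, SE 0.57, edgeR adjusted p = 0.164). Of 14 negative proteins, 1 was lower and 13 did not pass in edgeR, with a median log2 fold change of -0.55. The log2 fold change was negative for 13 of the 14, while it was positive for 51.5% of all tested genes. An unadjusted p under 0.05 was found for 5 of the 14, against 24.1% of all tested genes. DESeq2 called 3 lower and 0 higher. The gene lower in edgeR was Serpina6, the corticosteroid carrier (-2.29, SE 0.45, edgeR adjusted p = 0.0446), and Alb was at -0.51 (edgeR adjusted p = 0.412). Of 14 tested binding partners and receptors of the member proteins, 0 passed in edgeR, 3 had an unadjusted p under 0.05 and the median was 0.08. DESeq2 tested 15 of this list and called 1 higher and 1 lower.

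**Figure D3:**
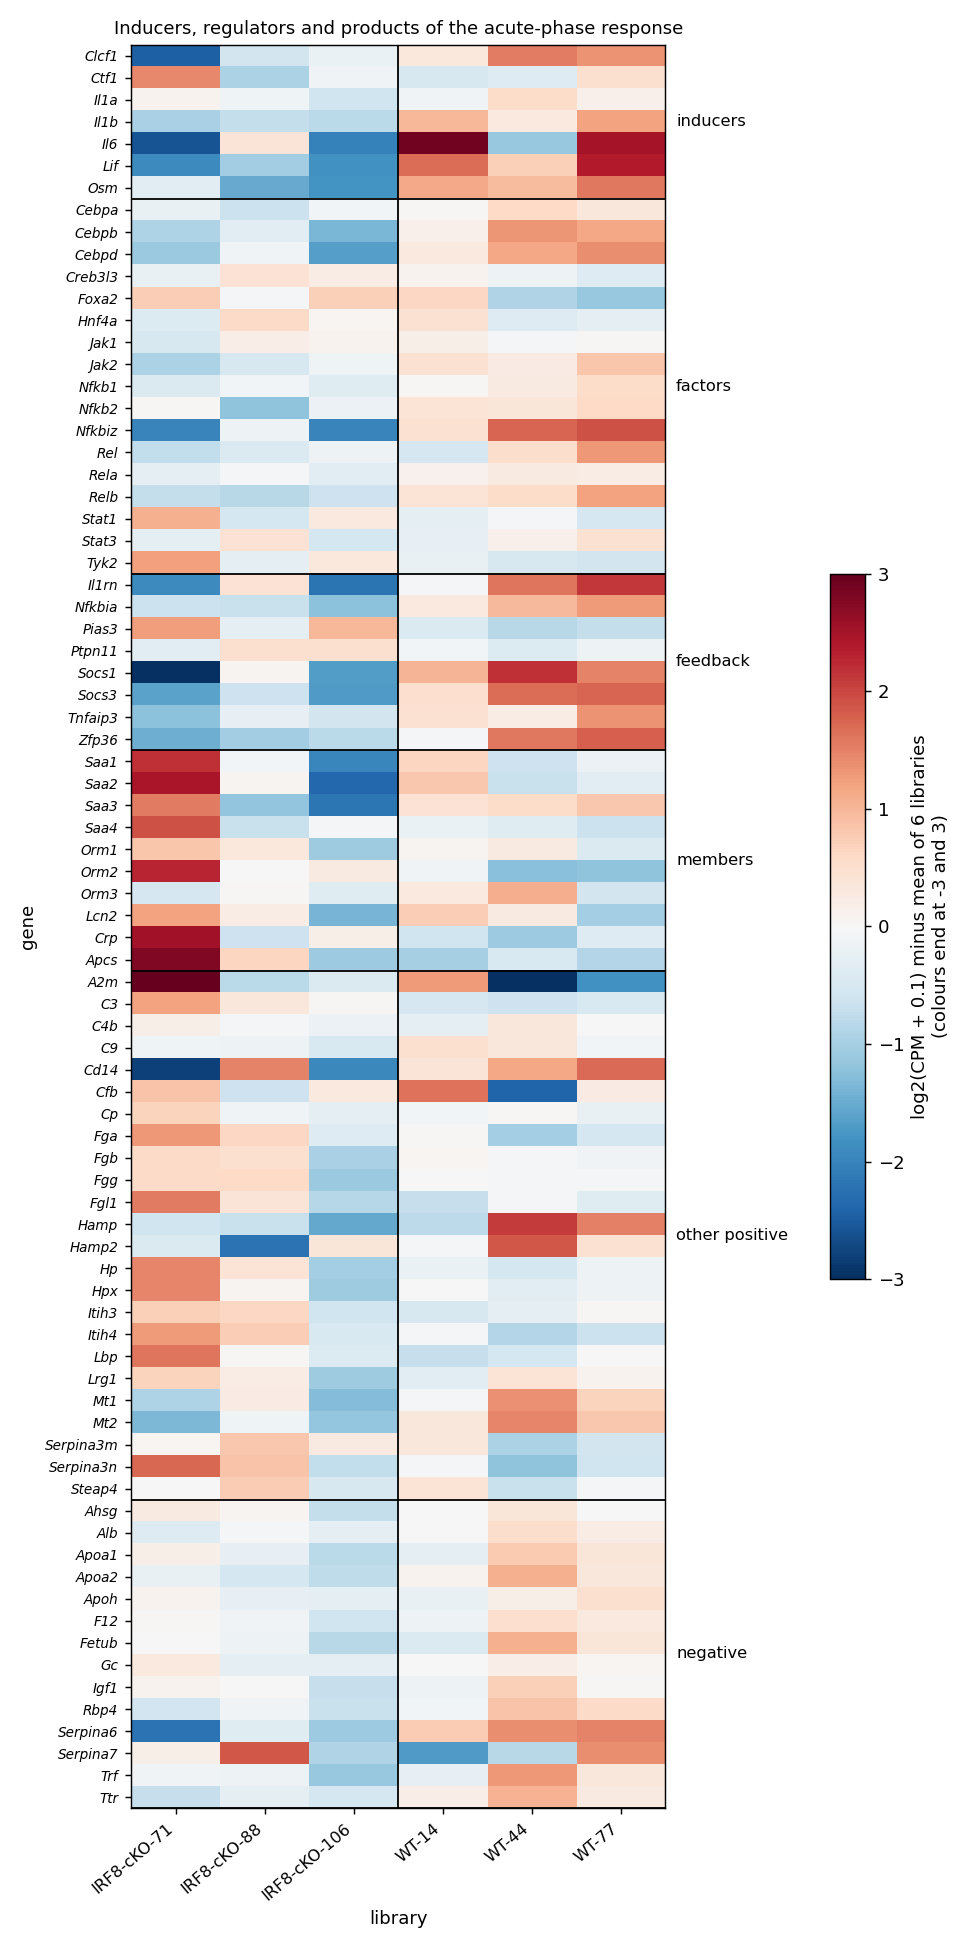
Log2(CPM + 0.1) minus the mean of 6 libraries for 80 tested genes (rows) in each library (columns, IRF8-cKO left of WT), in blocks of inducers, transcription and signalling factors, feedback inhibitors, the 10 members, other positive and negative acute-phase proteins. Socs3, Lif and Il1b are below their mean in all 3 IRF8-cKO libraries, while IRF8-cKO-71 is the highest library for 9 of the 10 members.

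Neutrophil markers fell in IRF8-cKO, and most other marker lists had no edgeR call. The summed level of 13 neutrophil markers was 25.3 to 55.5 CPM in IRF8-cKO libraries and 187 to 231 CPM in WT libraries, and 5 of 9 tested markers were lower, S100a8 (log2 fold change -2.57, SE 0.32, edgeR adjusted p = 0.0243) among them. At least 1 library had 0 reads for 5 of the 13. The neutrophil calls were 5 without IRF8-cKO-71 or WT-14, 7 without IRF8-cKO-88, 1 without IRF8-cKO-106 and 0 without WT-44 or WT-77. The summed level of 11 Kupffer cell markers was 385, 273 and 131 CPM in IRF8-cKO libraries, against 143, 148 and 120 CPM in WT libraries, with 0 of 11 called in edgeR, 6 at an unadjusted p under 0.05 and 3 called higher by DESeq2. This sum, like Saa1, Saa2, Saa3, Orm1, Lcn2 and Apcs, was highest in IRF8-cKO-71 and lowest of the IRF8-cKO libraries in IRF8-cKO-106. The summed other positive acute-phase proteins had the same order, with 169152, 119599 and 51249 CPM in the IRF8-cKO libraries. Saa4, Orm2 and Crp were also highest in IRF8-cKO-71 but lowest of the IRF8-cKO libraries in IRF8-cKO-88. Among WT libraries the Kupffer cell sum was highest in WT-44, as were Orm1 and Apcs. Saa1 and Saa2 were lowest there, and Saa3 and Lcn2 lay in between. IRF8-cKO-71 was the highest library for 24.2% of all tested genes. The 13 hepatocyte markers summed to 65788 to 80364 CPM in IRF8-cKO libraries and 80690 to 117377 CPM in WT libraries, with 0 of 13 called in edgeR, 2 at an unadjusted p under 0.05 and 2 called lower by DESeq2. Cholangiocyte markers summed to 130 to 252 CPM in IRF8-cKO libraries and 458 to 939 CPM in WT libraries. All 7 tested had a negative log2 fold change and 6 did not overlap between groups, with 0 called in edgeR, 6 at an unadjusted p under 0.05 and 4 called lower by DESeq2. Over all tested genes, 28.9% did not overlap, 24.1% had an unadjusted p under 0.05 and DESeq2 called 9.34%. Erythroid and platelet markers summed to 105 to 158 CPM in IRF8-cKO libraries and 232 to 333 CPM in WT libraries. All 8 tested had a negative log2 fold change, with 1 called lower in edgeR (Hba-a2, log2 fold change -1.74, SE 0.36, edgeR adjusted p = 0.0495) and 5 by DESeq2, and 0 were called in edgeR when any library but IRF8-cKO-88 was left out. Monocyte and macrophage markers summed to 75.4 to 104 CPM in IRF8-cKO libraries and 121 to 130 CPM in WT libraries, with 0 of 8 called in edgeR or DESeq2 and 4 at an unadjusted p under 0.05. The sums of stellate cell and endothelial markers overlapped between the groups. In bulk RNA, fewer cells of a type and less RNA per cell cannot be told apart, and the part of these cell markers in the values of the 10 genes was not tested.

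**Figure D4:**
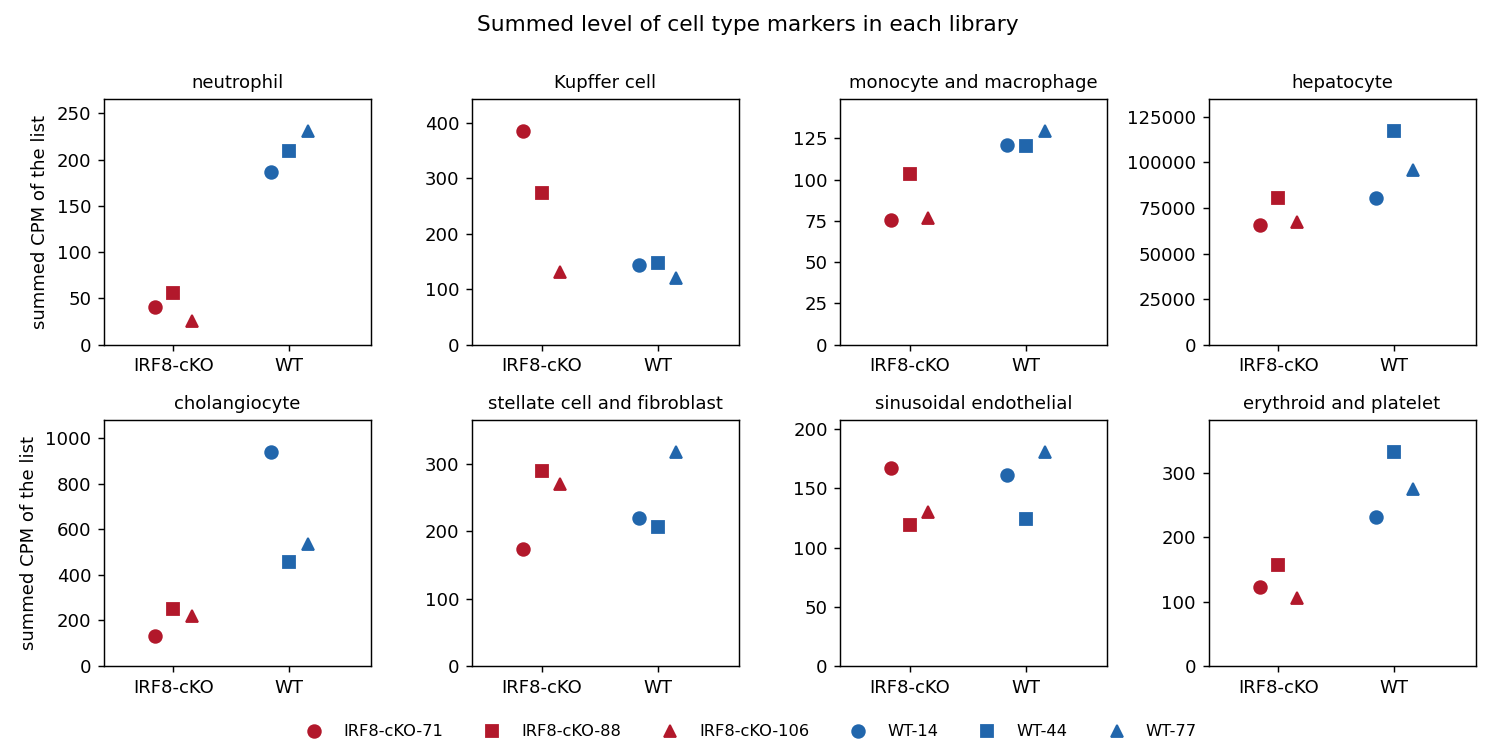
Summed CPM (linear axis from 0) of each cell type's marker list in each library, IRF8-cKO left of WT. The neutrophil sums of 25.3 to 55.5 CPM in IRF8-cKO lie below the WT sums of 187 to 231 CPM, and the Kupffer cell sum is highest in IRF8-cKO-71.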

How the data were processed

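The authors deposited raw counts of reads per gene, whole numbers not normalized, for 6 libraries. The labels' protocols name Trizol for extraction and an NEBNext Ultra kit for the libraries. The submitters' processing notes list HISAT2 (2.0.5), featureCounts (1.5.0-p3) and the build mm10, without their roles. No source used here states the strand setting, the treatment of multiply mapped reads or the annotation.

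Groups came from the titles. Counts were scaled by TMM, genes kept by filterByExpr (minimum count 10, minimum total 15), and groups compared by edgeR 4.0.16 in R 4.3.3 with a robust two-sided quasi-likelihood test and Benjamini-Hochberg adjustment at 0.05. The procedure was also run on counts simulated from the dispersions fitted to these data. Such counts hold no shift shared across a library, so that run cannot bear on the dependence on single libraries. SE is the absolute log2 fold change over the square root of F. The biological coefficient of variation was 37.1%. No library was a copy of another (the lowest chi-square per degree of freedom between libraries was 71.5).

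The members, lists and motifs were chosen with earlier results of these data known. Named genes were the 10 members, up to 4 genes of lowest p per pathway list, 13 genes always taken (such as Il6, Socs3 and Alb), the 3 genes most like each member and up to 2 markers per cell type list, of which the text gives a selection. A gene that the rule takes is not reported here. Identities and windows used Biopython and RefSeq or GENCODE M21 sequences. Alternatives were other scalings (median of ratios, upper quartile, library totals), filters, DESeq2 1.42.0, limma-voom (limma 3.58.1), no robust shrinkage, a length correction, summed family copies and each library left out.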

Additional observations from a re-analysis of the deposited data

How the results depend on the processing

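The spread among 3 libraries a group limits every comparison here, and several results rest on single libraries. Genes called over all genes tested (182) became 82 with library totals, 1723 with no low-count filter, 1353 with DESeq2, 111 with limma-voom and 77 with the length correction, and 0 to 1205 with 1 library left out (0 without WT-77, 1 without WT-44, 20 without IRF8-cKO-106, 1205 without IRF8-cKO-88). Members called (0) became 3 with no low-count filter (Orm2, Crp and Saa4, beside 7.15% of all genes) and 2 with DESeq2 (Orm2 and Crp, beside 9.34%). With 1 library left out 0 to 2 were called. They were 1 without IRF8-cKO-71 (Saa3, beside 1.05% of all genes) and 2 without IRF8-cKO-88 (Orm2 and Crp, beside 8.83%). Members without overlap (1) became 2 with the length correction, 0 with family copies summed, and 1 to 3 with 1 library left out, 3 without IRF8-cKO-88 or IRF8-cKO-106. The share of all tested genes was 28.9% with 6 libraries and was not counted in these settings. Groups are also more easily apart with a library left out, so these counts give no result about the members. Pathway list calls (7) became 2 with library totals, 26 with no low-count filter, 25 with DESeq2, 3 with limma-voom, 2 with the length correction and 0 to 19 with 1 library left out. The log2 fold change changed sign when a library was left out for Saa1 (-0.77 to 1.42), Saa2 (-0.74 to 1.65), Saa3 (-2.20 to 0.15), Orm1 (-0.21 to 0.61) and Lcn2 (-0.53 to 0.64). It kept its sign in all alternatives run for Saa4, Orm2, Orm3, Crp and Apcs. Summing copies gave 0.99 for Saa1 with Saa2 (edgeR adjusted p = 0.535) and 0.26 for the Orm genes (edgeR adjusted p = 0.761). Library totals moved the median of all genes to 0.25. The cause of these changes was not tested. No paired analysis was possible because the groups share no replicate number.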
